A study of Mus musculus with 33 samples.

Results

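Of the 3918 guide RNAs (gRNAs) of the screen table of the Tdgf1 reporter line, 251 target an interval of 3000 bp downstream of the gene. They are all those whose target interval has its midpoint in chr9:110933000-110935999 of the mouse assembly mm10. The interval holds the sites of 2 gRNAs that the study also followed by deep sequencing under the name Tdgf1 URE. The study measured how gRNAs that mutate DNA around a gene are distributed over cells sorted by a GFP reporter, in 4 reporter lines and 33 samples. The 9 libraries used here are from mouse embryonic stem cells whose Tdgf1 gene carries GFP in place of its start site (GFP-replacement at TSS, in the labels) and which hold a dummy guide RNA, the placeholder that library gRNAs take the place of, in ROSA26. They are 3 libraries of the bulk population after electroporation of the gRNAs, 3 of sorted GFP-medium cells and 3 of sorted GFP-negative cells, numbered 1 to 3 in each population. All cells were grown with serum, LIF, the GSK-3 inhibitor XV and UO126. The labels do not say whether the line is 1 clone, how many cells were sorted, or whether the replicates were cultured apart. The p-values therefore cover the spread of these libraries, and that spread may be technical. The deep sequencing of the 2 sites is not analysed here.

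A CRISPR gRNA directs the nuclease Cas9 to a matching site, where repair of the cut often leaves small insertions or deletions. In such a screen a gRNA whose cut lowers reporter expression gathers in the GFP-negative or GFP-medium cells, and a gRNA without that effect is carried into those cells only by background. Tdgf1 encodes Cripto, a membrane-anchored co-receptor of Nodal signalling that is highly expressed in mouse embryonic stem cells. Regulatory DNA of a gene can lie far from its promoter, and dense tiling with gRNAs tests such DNA in place, with each gRNA reporting on the few base pairs around its cut.

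The interval is intergenic. No RefSeq gene span of the matching assembly overlaps it. Tdgf1 lies on the minus strand with its 3' end at position 110939608 and its 5' end at 110946158, so the interval begins 3609 bp beyond the 3' end and reaches 13158 bp from the 5' end. The nearest gene on the other side is Fam240a, which ends 16102 bp away. The first of the 251 gRNAs starts at 110933586, so the first 586 bp of the interval hold none. Beyond that point the tiling was dense: the median gap between neighbouring midpoints was 7 bp, the largest was 92 bp, and 229 of 250 neighbouring pairs had overlapping target intervals. The target intervals span 23 bp for 210 of the gRNAs and 22 bp for 41, and no interval was listed more than 1 time. The deep-sequenced sites match the gRNAs at chr9:110934269-110934291 and chr9:110934425-110934447, whose starts are 156 bp apart. In the list of deep-sequenced sites both starts are 1 bp higher than in the count table, and the end of the first is 2 bp higher. They lie 11888 bp and 11732 bp from the 5' end of Tdgf1.

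The depth limits what can be read from a gRNA. Bulk libraries held 107960 to 123840 counts over library gRNAs, GFP-medium libraries 379072 to 461825 and GFP-negative libraries 608532 to 719247. A count of 3, taken as the upper limit that a count of 0 allows, equals 4.17 to 4.93 CPM in GFP-negative libraries, 6.50 to 7.91 CPM in those of GFP-medium cells and 24.2 to 27.8 CPM in bulk. CPM is the count of a gRNA scaled to a common total of all library gRNAs. Such limits cover counting error only, since the counts come from PCR reads. The placeholder gRNA, left out of these totals, took 3.53% to 11.3% of all bulk counts and at most 0.178% in GFP-medium or 0.370% in GFP-negative libraries.

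Bulk cells carried nearly all of the 251 gRNAs, at levels that differed, with quartiles of 143 and 349 CPM for the mean over libraries. The median gRNA had a mean of 241 CPM over the 3 bulk libraries, against 219 CPM over all gRNAs of the table, and the highest had 999.8 CPM. Of the 251 gRNAs, 234 had counts in every bulk library and 1 had none in any. The leading gRNA took 1.78% to 2.23% of the counts of the 251 in a bulk library.

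As a group the 251 gRNAs took a smaller share of the sorted populations than of bulk. Their share of library counts in bulk was 6.60%, 6.32% and 6.74% in replicates 1 to 3 (6.56% ± 0.22, SD, n = 3). In GFP-negative cells it was 4.67%, 5.21% and 3.23% (4.37% ± 1.03, SD, n = 3). In GFP-medium cells it was 2.84%, 1.94% and 0.662% (1.81% ± 1.09, SD, n = 3). The 3 populations did not overlap, with bulk highest, GFP-negative between and GFP-medium lowest. The log2 ratio of mean shares was -0.58 for GFP-negative against bulk, -1.85 for GFP-medium against bulk and 1.27 for GFP-negative against GFP-medium. Each of these had p = 0.1 in a 2-sided exact permutation test, the smallest that 3 against 3 libraries allow, and 0.2 after Benjamini-Hochberg adjustment over the 12 share tests made. All 3 comparisons draw on the same 9 libraries.

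A share of the whole library depends on what the other gRNAs do. Around the promoter of Tdgf1, 456 gRNAs with a midpoint at most 2 kb from the 5' end made up 13.0% of bulk counts, 60.8% of those in GFP-medium and 35.9% of those in GFP-negative cells, as means of 3 libraries. Among the 2776 gRNAs more than 5 kb from the 5' end, the 251 took 9.57%, 9.06% and 9.66% in bulk, 8.67%, 9.68% and 3.34% in GFP-medium, and 9.41%, 12.3% and 8.89% in GFP-negative libraries. The populations overlapped on this scale. The log2 ratio was 0.11 for GFP-negative against bulk (exact permutation p = 0.9), -0.38 for GFP-medium against bulk (exact permutation p = 0.4) and 0.50 for GFP-negative against GFP-medium (exact permutation p = 0.4). The overlap depends on where distal begins. Among gRNAs more than 3 kb from the 5' end, GFP-medium lay below both other populations without overlap, with log2 ratios of -0.68 against bulk and 0.74 for GFP-negative against GFP-medium (each exact permutation p = 0.1, with no adjustment).

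The same was done among all gRNAs downstream of Tdgf1, which are the 251 and 1025 others. Here the 251 took 23.5%, 21.8% and 23.4% in bulk, 26.3%, 29.8% and 11.4% in GFP-medium, and 25.4%, 29.9% and 25.5% in GFP-negative libraries. Every GFP-negative library lay above every bulk library, by a log2 ratio of 0.23 (exact permutation p = 0.1, adjusted p = 0.2). Without the leading gRNA at chr9:110934349-110934371 this ratio was 0.15 with p = 0.5 in the exact permutation test. GFP-medium and bulk overlapped, with a log2 ratio of -0.03 (exact permutation p = 1).

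The gRNA at the first deep-sequenced site, chr9:110934269-110934291, had 23, 8 and 34 counts in bulk libraries 1 to 3. It had 0, 170 and 0 counts in GFP-medium and 0, 133 and 0 in GFP-negative libraries. Its sorted counts thus lay in replicate 2 alone, in both sorted populations. On the scale of CPM its means were 191 ± 125 in bulk, 149.5 ± 259 in GFP-medium and 61.6 ± 107 in GFP-negative (SD, n = 3). The sorted populations overlapped bulk, and edgeR's quasi-likelihood test gave adjusted p = 0.921 for GFP-negative and 0.955 for GFP-medium against bulk.

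The gRNA at the second deep-sequenced site, chr9:110934425-110934447, had 45, 50 and 56 counts in bulk, none in any GFP-medium library, and 4647, 124 and 0 counts in GFP-negative libraries. GFP-negative replicate 1 stood far above bulk, at 7570 against 376 CPM, while replicates 2 and 3 lay below it. The mean in GFP-negative was 2581 ± 4322 CPM against 433 ± 75.7 CPM in bulk (SD, n = 3). The difference did not pass the edgeR test, with a log2 fold change of 2.67 and adjusted p = 0.761. That test called 0% of all gRNAs tested higher in GFP-negative than in bulk, so the missing call does not show the lack of a rise. In GFP-medium cells it was at least 61.6-fold lower than in bulk, with 3 counts per library as the floor, and edgeR gave adjusted p = 0.0476. That test called 40.3% of all gRNAs tested lower in GFP-medium than in bulk. Of the 108 gRNAs of the interval so called, 107, this one among them, had no GFP-medium count. No gRNA of the interval was so called when any of the GFP-medium libraries was left out. The pass is therefore not read as a result about the second site. The first gRNA, with GFP-medium counts in replicate 2, did not pass. The difference between the 2 was not tested.

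Within 100 bp of either deep-sequenced site lay 42 of the 251 gRNAs. They took 1.20%, 1.12% and 1.09% of bulk counts (1.13% ± 0.06, SD, n = 3) and 0.128%, 0.181% and 0.0432% of GFP-medium counts (0.117% ± 0.069, SD, n = 3). In GFP-negative libraries they took 2.25%, 0.701% and 0.766% (1.24% ± 0.88, SD, n = 3). GFP-medium lay below bulk without overlap, by 9.68-fold, and below GFP-negative without overlap, by 10.6-fold (each exact permutation p = 0.1, adjusted p = 0.2). In log2 these are -3.28 and 3.40, and with all gRNAs within 200 bp of a site they were -1.70 and 1.76. Without GFP-negative replicate 1 the second was 2.65. GFP-negative and bulk overlapped, with a log2 ratio of 0.13 and exact permutation p = 1, because replicate 1 lay above bulk and the other 2 below it. Without the leading gRNA of the 42 this log2 ratio was -0.37, and without GFP-negative replicate 1 it was -0.63.

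As a share of the counts of the 251 gRNAs, a scale added after the values were seen, the 42 took between 16.1% and 18.1% in bulk, between 4.50% and 9.31% in GFP-medium, and 48.2%, 13.5% and 23.7% in GFP-negative libraries. GFP-medium again lay below the other populations without overlap, by a log2 ratio of -1.35 against bulk and 2.07 for GFP-negative against GFP-medium (each exact permutation p = 0.1, with no adjustment). Of the 42, 41 or 42 had counts in a bulk library, 3, 8 and 3 in GFP-medium, and 11, 21 and 10 in GFP-negative replicates 1 to 3. Over the libraries of a population, 29 of the 42 (69.0%) stayed at 0 in GFP-medium, beside 55.2% of all gRNAs of the table and 71.6% of the 1025 other downstream gRNAs. In GFP-negative 13 (31.0%) did, beside 34.0% of all and 49.1% of the other downstream gRNAs. Of the latter 10.4% had no count in any bulk library, while each of the 42 had one. Of the 42, 1 had counts in all 3 GFP-negative libraries.

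The counts near the sites came from few gRNAs. The highest was chr9:110934349-110934371, between the sites, with 133, 31 and 18 counts in bulk, 587, 1 and 0 in GFP-medium and 7476, 0 and 0 in GFP-negative libraries. Replicate 1 held the most of its counts in every population, bulk included. Its GFP-negative mean of 4060 ± 7031 CPM (SD, n = 3) was the highest of the 251 gRNAs and did not pass the edgeR test against bulk (adjusted p = 0.785). Of the 3 gRNAs that overlap it, 1 had counts in GFP-negative replicate 1, at 53. Of the 6 that overlap the gRNA of the second site, 1 had counts in that library, at 177.

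Other gRNAs near the sites peaked in other replicates. One of them, chr9:110934275-110934297, overlaps the first site and had 61, 31 and 45 counts in bulk, 0, 92 and 0 in GFP-medium and 0, 15 and 2168 in GFP-negative libraries. Another, chr9:110934356-110934377, had 77, 71 and 55 counts in bulk, 0, 225 and 0 in GFP-medium and 53, 341 and 0 in GFP-negative libraries. By contrast chr9:110934194-110934216 had 59, 59 and 50 counts in bulk and none in any sorted library. It was at least 102-fold lower in GFP-negative than in bulk (edgeR adjusted p = 0.0374) and at least 67.9-fold lower in GFP-medium (edgeR adjusted p = 0.0323). A gRNA without sorted counts enters the test through bulk alone, so these values follow its bulk coverage. No sorted count was found for 28.7% of the 251, beside 31.2% of all gRNAs of the table.

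Along the interval, summed in steps of 250 bp, the share of GFP-negative counts exceeded the share of bulk counts in 1 step of the 10 that hold gRNAs. That step was chr9:110934250-110934499, which holds both deep-sequenced sites and 32 gRNAs. It took 0.895%, 0.783% and 0.799% of bulk and 2.23%, 0.689% and 0.765% of GFP-negative counts, a log2 ratio of 0.57 that rests on replicate 1, and the gRNA at 110934349 gave 33.0% of its GFP-negative signal. The other 9 steps had log2 ratios from -0.17 to -1.90. The lowest were chr9:110934750-110934999 at -1.90 and chr9:110933500-110933749 at -1.84, the latter with 9 gRNAs. These steps were laid out after the values were seen and were not tested.

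In GFP-medium cells each step of 250 bp took less than in bulk, with log2 ratios from -0.49 to -3.95. The step nearest to bulk, chr9:110934500-110934749, owed 90.4% of its GFP-medium share to the gRNA chr9:110934553-110934575. The step furthest below it was chr9:110935000-110935249, with 23 gRNAs. In steps of 1 kb, the 107 gRNAs at 110934000 took 2.77% ± 0.06 of bulk, 0.954% ± 0.959 of GFP-medium and 2.05% ± 0.76 of GFP-negative counts (SD, n = 3). The 107 gRNAs at 110935000 took 2.82% ± 0.24, 0.696% ± 0.134 and 1.82% ± 0.36 (SD, n = 3). The 37 gRNAs at 110933000 took 0.971% of bulk, 0.163% of GFP-medium and 0.507% of GFP-negative counts. Ranked from the highest log2 ratio among the 41 steps of 1 kb over the whole table, the steps at 110933000, 110934000 and 110935000 were 29, 13 and 20 for GFP-negative against bulk, and 35, 23 and 30 for GFP-medium against bulk.

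Outside the site region the leading gRNAs of GFP-negative cells were each high in 1 or 2 replicates. With 46, 50 and 79 counts in bulk, chr9:110934100-110934122, which overlaps no other of the 251, had 697, 2936 and 14 in GFP-negative libraries. It was the highest in GFP-negative cells after the gRNA at 110934349 and that of the second site, at 1747 ± 2098 CPM against 507 ± 195 CPM in bulk (SD, n = 3), with an edgeR adjusted p = 0.837. GFP-negative replicates 1 and 2 lay above bulk and replicate 3 below it. For chr9:110933867-110933889 the GFP-negative counts were 0, 3433 and 53, against 46, 60 and 70 in bulk. For chr9:110935125-110935147 they were 2368, 485 and 0, against 46, 31 and 0. For chr9:110935343-110935365 they were 42, 140 and 2453, against 54, 36 and 71. These last 3 reached their highest count in different replicates.

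A count of 1000 or more in a sorted library, a threshold set after the values were seen, was found 21 times, for 20 of the 251 gRNAs. Of these, 19 were in GFP-negative and 2 in GFP-medium libraries. GFP-medium libraries held fewer counts in all, so the threshold stands for a higher CPM there and the 2 numbers are not on 1 scale. In GFP-negative replicate 2, chr9:110934285-110934307 passed it with 1161 counts, at 1614 CPM. In GFP-medium replicate 2, chr9:110934553-110934575 did not, with 935 counts at 2467 CPM. The number over the whole table is not given here. The gRNAs with such a count had 23 to 133 counts in the bulk library of the same number. Of these 21 bulk counts, 20 were above the median of the gRNAs of the interval seen in that library. That median was 27.5, 30 and 26 in replicates 1 to 3. The part of this in the result was not tested. In 9 of the 21 both other replicates of the population had 0 counts, in 9 more 1 of them had 0, and in 3 neither had. Only chr9:110934573-110934595 reached this level in another replicate too, with 0, 1355 and 1114 counts in GFP-negative libraries against 40, 61 and 42 in bulk. Of the 91 gRNAs that overlap those with such a count, added over the 21, 38 had any count in the same library.

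In GFP-medium cells the leading gRNA was chr9:110934553-110934575, whose midpoint lies 127 bp from that of the second site and which was seen in all 6 sorted libraries, as no other of the 251 was. It had 35, 23 and 22 counts in bulk, 3802, 935 and 9 in GFP-medium and 15, 3 and 6 in GFP-negative libraries. GFP-medium replicates 1 and 2 lay above every bulk library and replicate 3 below them, while all GFP-negative libraries lay below bulk. Its means were 227 ± 57.1 CPM in bulk, 3573 ± 4217 CPM in GFP-medium and 12.8 ± 10.5 CPM in GFP-negative (SD, n = 3). The edgeR test gave a log2 fold change of 4.31 for GFP-medium against bulk with adjusted p = 0.163, and -8.27 for GFP-negative against GFP-medium with adjusted p = 0.179. DESeq2 called both, with log2 fold changes of 5.72 ± 1.66 (SE; adjusted p = 0.00183) and -8.51 ± 1.68 (SE; adjusted p = 1.27e-05). The overlapping gRNA at 110934573 had 79, 36 and 0 counts in GFP-medium libraries.

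The other leading gRNAs of GFP-medium cells had nearly all their counts in 1 GFP-medium library. Next was chr9:110934015-110934037, with 2467, 0 and 0 counts there, and 97, 698 and 0 in GFP-negative libraries. The overlapping pair chr9:110934817-110934839 and chr9:110934825-110934847 had 0, 858 and 0 and 945, 0 and 0 counts in GFP-medium libraries, so that each had 0 counts in the library where the other was high. Counts of 0, 746 and 0 were found for chr9:110935260-110935282 in GFP-medium libraries, and none in GFP-negative libraries. Replicate 3 was the highest for chr9:110935540-110935562, which had 0, 14 and 783 counts in GFP-medium and 55, 585 and 16 in GFP-negative libraries.

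Each sorted library held counts for a part of the 251 gRNAs. In GFP-medium replicates 1 to 3, 38, 65 and 15 had counts, which is 15.1%, 25.9% and 5.98% of the 251, against 21.1%, 30.6% and 13.6% of all gRNAs of the table. In GFP-negative replicates 64, 136 and 48 had counts, which is 25.5%, 54.2% and 19.1%, against 30.2%, 53.8% and 25.3% of all. Replicate 3 held the fewest in both populations and replicate 2 the most. Of the 1025 other downstream gRNAs, 11.4%, 17.5% and 7.32% had counts in GFP-medium and 19.9%, 39.3% and 17.4% in GFP-negative replicates 1 to 3. These gRNAs were also less covered in bulk, where 82.5%, 85.3% and 80.1% of them had counts, against 97.2%, 98.4% and 94.8% of the 251. The part of this in the result was not tested.

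Over the 3 libraries of a population, GFP-medium cells lacked any count for 153 of the 251 (61.0%), beside 55.2% of all gRNAs of the table, and had counts in all 3 for 1 (0.398%), beside 3.90%. GFP-negative cells lacked any for 78 (31.1%), beside 34.0%, and had counts in all 3 for 8 (3.19%), beside 10.2%. Of the 1025 other downstream gRNAs, 71.6% lacked any GFP-medium count and 49.1% any GFP-negative count. For the 251, counts were found in GFP-negative cells alone for 81 gRNAs, in GFP-medium cells alone for 6 and in both for 92. GFP-negative libraries held more counts in all, and this split over all gRNAs is not given here. It is therefore not read as a result about the interval. Counts were found in neither for 72 (28.7%, beside 31.2% of all). The 72 had a median of 145 CPM in bulk, and the 179 with any sorted count had 279 CPM, so fewer bulk counts went along with no sorted counts; the part of this in the result was not tested.

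Most gRNAs seen in a GFP-medium library were also seen in the GFP-negative library of that number, as over the whole table. Of the 38, 65 and 15 gRNAs in GFP-medium replicates 1 to 3, 30 (78.9%), 58 (89.2%) and 13 (86.7%) also had counts in that GFP-negative library, beside 83.1%, 90.6% and 82.5% over all gRNAs of the table. The shared gRNAs were 46.9%, 42.7% and 27.1% of those of the interval seen in the GFP-negative library, beside 58.1%, 51.5% and 44.3% over all gRNAs. In GFP-negative libraries of another number 26.2% to 57.9% of a GFP-medium list had counts, beside 41.6% to 78.6% over all gRNAs. Between replicates of GFP-negative cells, replicates 1 and 2 shared 38 gRNAs (59.4% and 27.9% of the lists), 1 and 3 shared 15 (23.4% and 31.3%) and 2 and 3 shared 30 (22.1% and 62.5%). Over all gRNAs of the table these shares were 73.1% and 41.1%, 39.1% and 46.7%, and 36.3% and 77.1%. Replicates of GFP-medium cells shared 14 (36.8% and 21.5% of the lists), 3 (7.9% and 20%) and 4 gRNAs (6.15% and 26.7%) in the same order. Over all gRNAs of the table these shares were 52.7% and 36.4%, 25.6% and 39.8%, and 25.8% and 58.0%.

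Counts were also concentrated. The 10 leading gRNAs of a library took 10.9% to 13.8% of the counts of the 251 in bulk. In GFP-medium replicates 1 to 3 they took 82.2%, 67.1% and 98.2%, and in GFP-negative replicates 75.7%, 40.6% and 77.7%. The leading gRNA alone took between 12.7% and 29.0% in GFP-medium libraries and between 9.16% and 26.1% in those of GFP-negative cells.

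Single gRNAs were tested in a fit across the whole table, with p-values adjusted over the 3172 gRNAs that passed the filter on low counts. Of the 251, 227 passed. The 24 that did not had no GFP-medium count, 21 of them had no GFP-negative count either, and none had over 147.5 CPM in bulk. With edgeR, no gRNA of the interval was called higher in GFP-negative than in bulk (0 at an unadjusted p under 0.05, background 0% of all tested). DESeq2 called 0 higher of 172 with an adjusted p (background 1.65%). EdgeR thus called no gRNA of the whole table higher, although the 10 GFP-targeting gRNAs together took 0.210% of bulk and 6.52% of GFP-negative counts. A missing edgeR call therefore does not show that a gRNA did not rise.

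Against bulk, 57 of the 227 (25.1%) fell in GFP-negative cells with edgeR, beside 22.2% of all tested gRNAs. A share this near to the background is read as no result about the interval. Counts in GFP-negative libraries were entirely at 0 for 53 of the 57. Near the deep-sequenced sites 13 of 41 tested fell, and of the other downstream gRNAs 222 of 714. With the replicate number as a block 0 of the 227 passed, with a smallest adjusted p of 0.0936, and limma-voom called 0, with 89 and 54 below an unadjusted p of 0.05. DESeq2 called 72 of 172 lower, against 35.3% of all. Without bulk replicate 1 the edgeR count was 34, and without GFP-negative replicate 2 it was 120.

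In GFP-medium cells 108 of the 227 (47.6%) fell against bulk with edgeR, beside 40.3% of all tested gRNAs. None was called higher (0 at an unadjusted p under 0.05, background 0%), which here too does not show that none rose. GFP-medium counts were at 0 throughout for 107 of the 108. Near the sites 25 of 41 fell, and of the other downstream gRNAs 379 of 714. DESeq2 called 118 of 172 lower (background 54.7%) and 1 higher (background 3.43%), which is the gRNA at 110934553 described above. Limma-voom called 0, with 89 lower at an unadjusted p under 0.05. Leaving out bulk replicate 1 gave an edgeR count of 56, leaving out bulk replicate 3 gave 59, and leaving out any of the 3 GFP-medium libraries gave 0.

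The largest fitted decreases were those of gRNAs well covered in bulk, which follows from how the decrease is formed. A gRNA without sorted counts passes the filter through bulk alone. The bound on its fold is its bulk level over a fixed floor, so the order of these gRNAs ranks their bulk coverage. In bulk chr9:110935501-110935523 had 57, 39 and 92 counts, and it had none in any sorted library, which is at least 117.5-fold lower in GFP-negative (edgeR adjusted p = 0.0405) and at least 77.9-fold lower in GFP-medium (edgeR adjusted p = 0.0340). The gRNAs at chr9:110933586-110933607, chr9:110935845-110935867 and chr9:110934217-110934239 also had no sorted count, and were at least 117-fold, 109.5-fold and 94.9-fold lower in GFP-negative than in bulk. Their bulk counts were 88, 67 and 39, then 79, 69 and 34, then 58, 63 and 36.

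Best covered in bulk was chr9:110934037-110934059, with 141, 159 and 58 counts (999.8 ± 404 CPM, SD, n = 3). It had none in GFP-medium libraries and 7, 0 and 9 in GFP-negative libraries. In GFP-medium it was at least 142-fold lower (edgeR adjusted p = 0.0290). Without any GFP-medium count too was chr9:110935679-110935701, with 77, 72 and 59 counts in bulk and 0, 606 and 98 in GFP-negative libraries, at least 84.0-fold lower in GFP-medium (edgeR adjusted p = 0.0401). The bulk count of chr9:110935327-110935349, at 120, 72 and 113, was next, and this gRNA had 0, 0 and 74 counts in GFP-medium and 0, 0 and 1877 in GFP-negative libraries. After it, chr9:110935755-110935777 had 31, 49 and 162 counts in bulk, 36, 333 and 0 in GFP-medium and 0, 233 and 0 in GFP-negative libraries. Last of the 4 highest, chr9:110935934-110935956 had 77, 81 and 73 in bulk, 134, 23 and 0 in GFP-medium and 422, 159 and 0 in GFP-negative libraries. A high bulk count thus went with none, few or many sorted counts.

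Between the sorted populations edgeR called no gRNA of the interval (63 higher and 6 lower in GFP-negative at an unadjusted p under 0.05; background 0% in either direction), and limma-voom called 0 higher (background 0.0315%). DESeq2 called 25 of 134 higher in GFP-negative (background 15.5%) and 4 lower (background 2.27%). The 4 were the gRNA at 110934553 and chr9:110933616-110933637, chr9:110933903-110933925 and chr9:110935767-110935789. The last 3, which were chosen after their values were seen, had no GFP-negative count and had GFP-medium counts in 1 library each, of 35, 94 and 152.

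By the order of the libraries alone, all 3 GFP-negative libraries lay below all bulk libraries for 133 of the 251 gRNAs (53.0%). This was so for 42% of all 3918 and 45.3% of the 1025 other downstream gRNAs. All 3 lay above for 0, beside 1.51% of all. All GFP-medium libraries lay below bulk for 189 (75.3%), beside 58.3% of all and 61.1% of the other downstream gRNAs, and above for 0, beside 0.74% of all. Lying below bulk needs counts in every bulk library. Such counts were found for 93.2% of the 251, 83.6% of all and 74.6% of the other downstream gRNAs. The part of this in the result was not tested. Near the deep-sequenced sites the counts below bulk were 22 and 35 of 42. GFP-negative lay above GFP-medium in every library for 3 of the 251, beside 2.12%, and below for 0, beside 0.281%.

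Those 3 gRNAs were chr9:110933761-110933783, chr9:110934232-110934253 and chr9:110934901-110934923. The first had 124, 72 and 13 counts in bulk, none in GFP-medium and 117, 162 and 138 in GFP-negative libraries. Its GFP-negative level of 214 ± 20.5 CPM (SD, n = 3) varied little between replicates, and lay within the range of bulk, at 579 ± 458 CPM. It was at least 82.4-fold lower in GFP-medium than in bulk (edgeR adjusted p = 0.0279). The second had 54, 45 and 34 counts in bulk, none in GFP-medium and 1, 33 and 3 in GFP-negative libraries, all below bulk. The last had 16, 24 and 51 counts in bulk, 3, 0 and 0 in GFP-medium and 657, 20 and 119 in GFP-negative libraries.

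With 3 counts as the floor, the median log2 ratio of the tested gRNAs was -2.56 for GFP-negative against bulk, beside -1.92 over all tested gRNAs and -3.23 over the other downstream gRNAs. For comparisons with GFP-medium no median is given, since most gRNAs of the interval had no count there and the floor would set it. In the fits the median over all tested gRNAs for GFP-negative against bulk was itself shifted to -1.67 by TMM, -1.29 by TMMwsp, -1.95 by total counts and -0.71 by DESeq2's size factors, and that of the interval's gRNAs lay below it under each of these scalings.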

How the data were processed

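Counts per gRNA and library were used as deposited by the authors, in a table per reporter line: whole numbers with different totals, taken as raw. Positions are mm10, per the submitters' processing notes, printed as in the tables; their first base number (0 or 1), and the program behind the counts, were not given in the sources used here. Genes came from a RefSeq table of gene spans of the matching assembly. The strand of Tdgf1 came from RefSeq's promoter table. The placeholder was left out, and 10 GFP-targeting gRNAs were kept in totals and fits. Groups and replicate numbers came from sample titles.

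In R 4.3.3, edgeR 4.0.16 fitted all 9 Tdgf1 libraries together (filterByExpr with a minimum count of 10, TMM scaling, robust quasi-likelihood F test, 2-sided), with Benjamini-Hochberg adjustment over all gRNAs tested and a threshold of 0.05. DESeq2 1.42.0, limma-voom (limma 3.58.1), other scalings, no filter, a replicate block and leaving out each library were alternatives. Shares were compared by 2-sided exact permutation tests on log2 shares (scipy 1.17.1). The scripts were tested on simulated data. A lower bound of a fold sets the mean CPM of bulk against the mean of 3 counts per library.

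Same-numbered libraries deviated together over 3172 gRNAs, with correlations of 0.209, 0.165 and 0.212 between GFP-negative and bulk, 0.19, 0.143 and 0.16 between GFP-medium and bulk, and 0.464, 0.369 and 0.424 between the sorted populations. The numbers, which the labels give to replicates of the line, were therefore taken to pair the samples, but only in alternatives. These were the replicate block in edgeR and the permutation of shares within replicate numbers. The main edgeR fit and the main share tests treated the libraries as unpaired. With the block, edgeR calls below bulk went from 57 to 0 in GFP-negative and from 108 to 121 in GFP-medium cells.

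The interval, the lists and the tests were chosen with earlier results of these data known. The gRNAs named are those at the deep-sequenced sites, the 3 highest in each population within 100 bp of them, the 6 highest in GFP-negative, the 6 in GFP-medium and the 4 in bulk cells, the 5 largest fitted changes among edgeR calls in each direction, and those above in every library of a comparison.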

Additional observations from a re-analysis of the deposited data

How the results depend on the processing

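Of 117 alternatives for shares that could move the value, 111 kept its direction, and of 34 for the 2 counts of calls above 0, 24 stayed within 1.5 times. For the 42 gRNAs near the sites, GFP-negative against bulk turned from 0.13 to -0.089 (log2) with geometric means and to -0.37 without the leading gRNA, and ranged from -0.63 to 0.41 when libraries were left out in turn. Leaving out libraries also turned the share among distal gRNAs (GFP-negative against bulk, -0.043 to 0.20) and among downstream gRNAs (GFP-medium against bulk, -0.28 to 0.29; GFP-negative against GFP-medium, -0.057 to 0.52). The cause was not tested.

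The 57 gRNAs lower in GFP-negative became 0 with limma-voom and 0 with the replicate block in edgeR, and 34 to 120 when libraries were left out. The 108 lower in GFP-medium became 0 with limma-voom, 121 with the replicate block in edgeR, and 0 to 147 when libraries were left out. With DESeq2, 1 gRNA was higher in GFP-medium than in bulk, and 25 were higher and 4 lower in GFP-negative than in GFP-medium, where edgeR called none. Within replicate numbers, a permutation of 3 pairs cannot go below p = 0.25, which the share of the 251 in GFP-negative against bulk reached. Depth limits what bulk shows of single gRNAs, whose median count there was 26 to 30 among those seen.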
